A study of Homo sapiens with 40 samples.

Results

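The 32 genes described here encode enzymes of cholesterol and fatty acid synthesis and the proteins that sense sterols and switch those enzymes on. They were chosen by symbol, as a list of pathway genes. All 32 were found among the 58336 genes of the authors' deposited table of expression comparisons, of which 19280 had values in at least 1 cell line and 9339 in all 10. Of the 32 genes, 31 had values in all 10 lines, and STARD4 had values in 9, with none listed in NCIH522. RNA sequencing had been done on 40 libraries from 10 established human non-small cell lung cancer lines, each treated with GSK3368712 or with the vehicle dimethyl sulfoxide (DMSO), with 2 libraries for each treatment of a line. GSK3368712 inhibits the type I arginine methyltransferases, which place asymmetric dimethyl marks on arginines of histones and RNA-binding proteins, and PRMT1 is the main enzyme of this type. The row labels place NCIH1563, NCIH1975, NCIH522 and PC9 in lung adenocarcinoma (LUAD), and EBC1, LK2, NCIH226, NCIH520, SKMES1 and SW900 in lung squamous cell carcinoma (LUSC). The sample titles carry the mark D5, which is not spelled out, and no dose is used here.

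Cholesterol is built from acetyl-CoA through mevalonate and the isoprenoids to squalene, which is closed into a ring and trimmed by the sterol enzymes. Fatty acids are built from the same acetyl-CoA by carboxylation, chain synthesis, elongation and desaturation. Most of these genes are targets of the sterol regulatory element binding proteins (SREBPs), membrane-bound transcription factors encoded by SREBF1 and SREBF2. When sterols are scarce, the escort protein SCAP carries SREBPs to the Golgi for cleavage, and when sterols are plentiful the INSIG proteins hold SCAP back in the endoplasmic reticulum. SREBF1 is known mainly for the fatty acid genes and SREBF2 mainly for the cholesterol genes.

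All expression values are log2 fold changes of GSK3368712 over DMSO, with the standard error and adjusted p that the authors' DESeq2 comparison gave for each line, and a gene is called in a line where that adjusted p is at most 0.05. Row labels name the inhibitor before the vehicle, and the direction of the fold changes rests on that order alone. Nothing in the labels says that the libraries of a treatment were cultured separately, and the p-values of a line then measure a spread that may be technical. The libraries hold bulk RNA, so fewer cells with a transcript and less of it per cell cannot be told apart. Across lines the line is the unit, with 1 fold change each. The transcript of PRMT1, the inhibitor's target, averaged 0.10 ± 0.23 (SD over 10 lines; limma adjusted p = 0.416), and the agent acts on the enzyme, so this level does not check the labels. The epithelial keratin genes KRT8 and KRT18 were listed in all 10 lines. Of the leukocyte genes, PTPRC and CD3E were listed in none and CD14 in NCIH1975 and SW900. Of the fibroblast genes, COL1A1 was listed in all 10 lines, LUM in 3, COL1A2 in 2 and DCN in 1. No subtype marker was listed in every line of 1 subtype label and in none of the other. Of the squamous genes, SOX2 was listed in 1 LUAD and 4 LUSC lines, TP63 in 2 and 2, KRT5 in 1 and 2, KRT6A in 1 and 1, and KRT14 and DSG3 in no line. Of the glandular genes, NKX2-1 was listed in 1 LUAD and 3 LUSC lines, NAPSA in 1 and 2, SFTPB in 0 and 1, and KRT7 in all 10.

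The pathway genes did not move one way across the lines. In EBC1 nearly the whole pathway fell, in LK2, NCIH520 and SW900 a part of it fell, in SKMES1 7 of the 11 sterol genes rose, and in NCIH1563 genes moved both ways, 9 of whose 18 calls were lost on correction for GC content. Over the 319 values of a gene in a line in the authors' deposited table, 35 were called higher (11.0%) and 91 lower (28.5%), against 13.7% and 13.8% of the 135786 values of all genes. Of the 31 genes listed in every line, 15 had calls in both directions (48.4%), 13 only lower ones (41.9%) and 3 only higher ones (9.68%). Over all 9339 such genes these shares were 21.9%, 35.3% and 31.4%, and 11.4% had no call, against 0 of the 31. The authors' own mark, which also asks for a change of 1 or more on the log2 scale, was set for 15 of these values, 14 of them lower and 7 of them in EBC1. The share of all values with this mark is not given here, so these counts have no background.

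**Figure D1:**
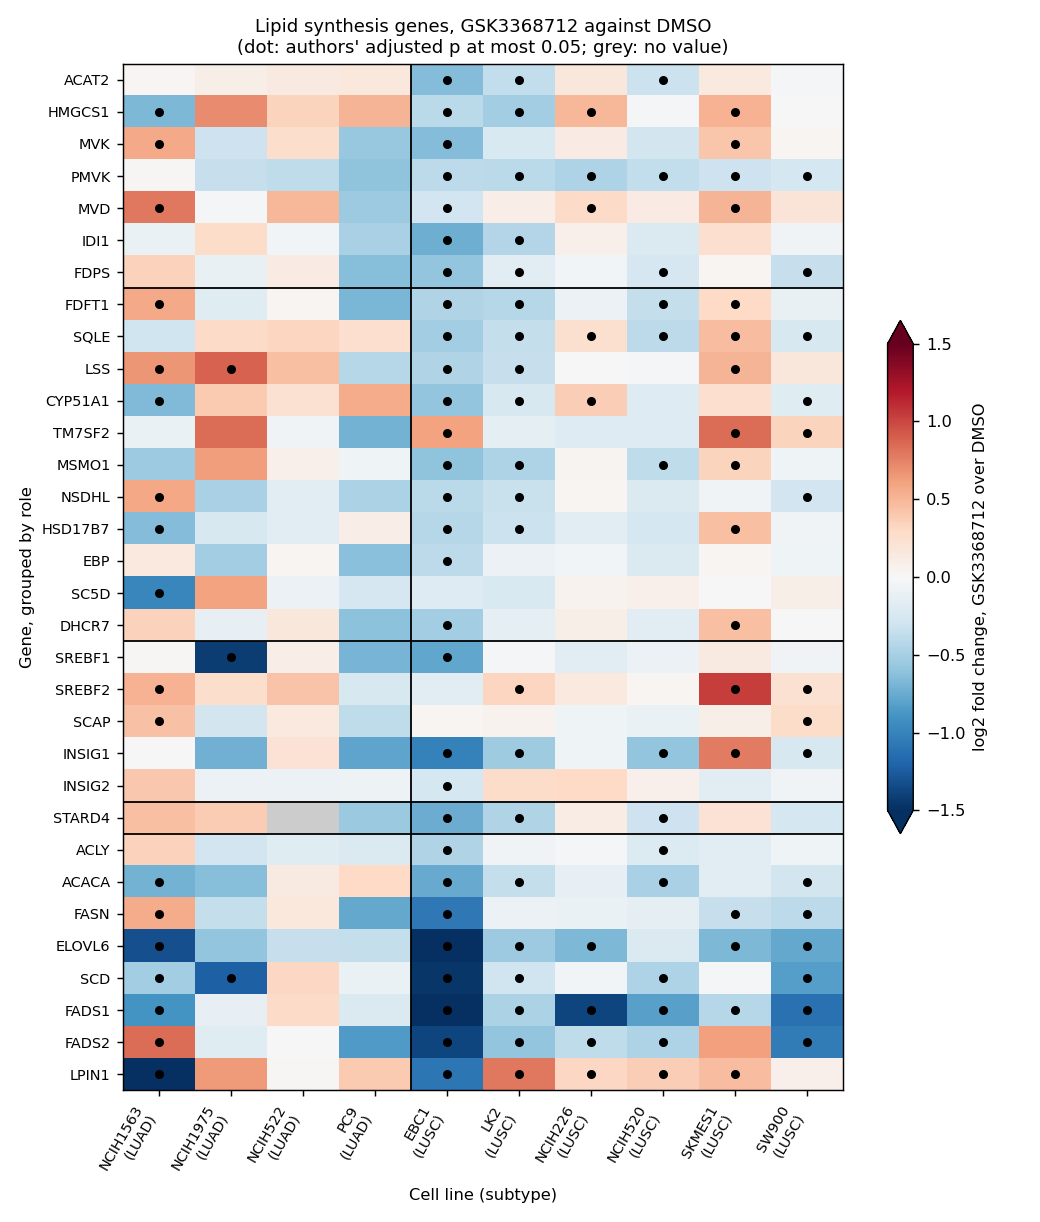
Log2 fold changes of the 32 genes (rows, grouped by role) in the 10 lines (columns, LUAD left of LUSC), GSK3368712 over DMSO, with the called values marked. EBC1 has 28 genes called lower, SKMES1 has 13 called higher, and NCIH522 and PC9 have none called.

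EBC1 had 28 of 32 genes called lower (87.5%), against 23.4% of all genes listed for that line, and 1 called higher, against 23.0%. All 7 mevalonate genes and all 8 fatty acid and lipid genes were among the lower ones, and the median log2 fold change of the 32 was −0.55. In LK2, 19 genes were called lower (59.4%, against 19.5% of all genes) and 2 higher (6.25%, against 19.9%), with a median of −0.31. NCIH520 had 13 genes called lower (40.6%, against 12.3%) and 1 called higher (against 11.4%), with a median of −0.22. For SW900 the counts were 12 called lower (37.5%, against 17.7%) and 3 called higher (9.38%, against 18.0%). SKMES1 was the line with the most genes called higher, 13 of 32 (40.6%, against 15.8% of all genes), with 4 called lower (12.5%, against 15.6%) and a median of 0.23.

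The other lines stayed close to their backgrounds in the number of calls. NCIH1563 had 9 genes called higher and 9 lower (28.1% each), against 23.3% and 24.8% of all genes. NCIH226 had 5 called higher (15.6%, against 15.5%) and 4 lower (12.5%, against 15.8%). NCIH1975 had 1 called higher (3.12%, against 4.33%) and 2 lower (6.25%, against 3.58%). None was called in NCIH522, where 0.912% of all genes were called higher and 0.750% lower, or in PC9, where the shares were 2.56% and 1.92%. PC9 still had 25 of 32 genes below 0, with a median of −0.41. The standard errors bear on these counts: the median over the genes was 0.203 to 0.322 per line in the 4 LUAD lines, against 0.0785 to 0.106 in the 6 LUSC lines, so a change that was called in LK2 could go uncalled in PC9. In every line this median was smaller than that of all genes, such as 0.0785 against 0.108 in LK2 and 0.203 against 0.216 in NCIH1563. Smaller errors make a call more likely at the same fold change, so the shares of all genes are not a background of equal precision.

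**Figure D2:**
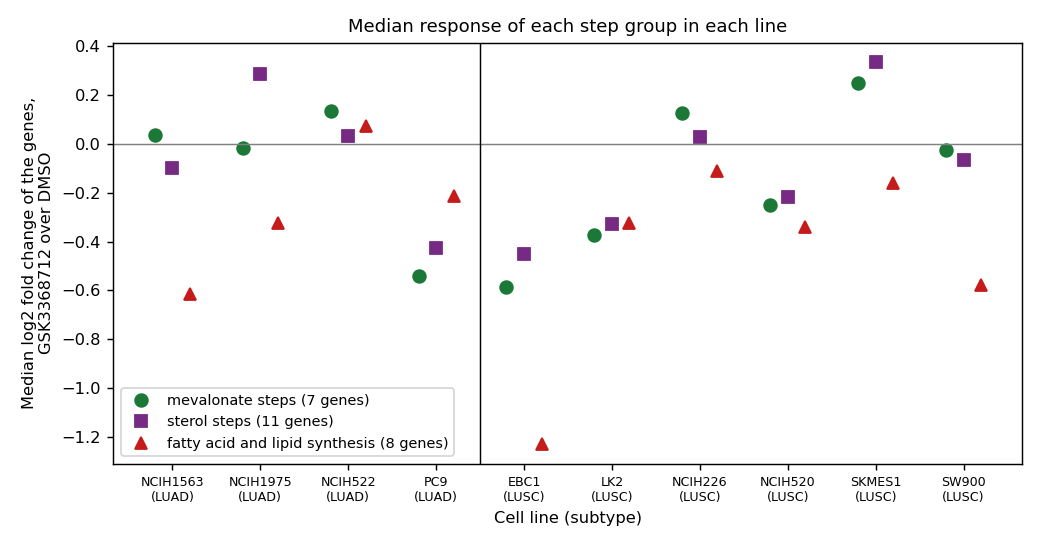
Median log2 fold change in each of the 10 lines, GSK3368712 over DMSO, for the 7 mevalonate, 11 sterol and 8 fatty acid and lipid genes, LUAD lines left of LUSC lines. SKMES1 stands highest for the sterol steps, at 0.34, and EBC1 stands lowest for the fatty acid and lipid genes, at −1.23.

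Across the 10 lines, limma was run on the 9339 genes with values in every line, with Benjamini-Hochberg adjustment over all of them. Of the 31 genes tested, 4 passed as lower (12.9%, against 12.1% of all genes) and 0 as higher (against 9.50%), and 6 had an unadjusted p under 0.05. The share of lower calls was thus near the background. The 4 were ELOVL6, FADS1, SCD and PMVK, 3 of them among the 8 fatty acid and lipid genes (37.5%). The median of the mean log2 fold changes was −0.13 over the 31 genes, against 0.004 over all genes tested, and 24 of the 31 means were below 0, against 4581 of 9339. Random-effects meta-analysis gave 7 lower calls (22.6%), with 22.0% of all genes called lower by the same method. Limma without NCIH1563 also gave 7 (22.6%), against 15.8% of all genes.

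The 8 fatty acid and lipid genes all had a mean below 0, with a median of −0.32, against −0.06 for the 7 mevalonate genes, −0.09 for the 11 sterol genes and 0.02 for the 5 sensors and regulators. ELOVL6, the elongase that extends palmitate to stearate, is on chromosome 4 (GRCh38, 110045846 to 110199199, minus strand). In the authors' deposited table its log2 fold changes were −1.32 in NCIH1563, −0.59 in NCIH1975, −0.35 in NCIH522, −0.36 in PC9, −1.62 in EBC1, −0.54 in LK2, −0.67 in NCIH226, −0.21 in NCIH520, −0.68 in SKMES1 and −0.77 in SW900. Every line was below 0, with EBC1 and NCIH1563 lowest, and 6 lines were called lower. The mean was −0.71 ± 0.44 (SD, n = 10 lines), a fold of 0.611 (limma adjusted p = 0.00166). A two-sided exact sign-flip permutation test over the lines gave p = 0.00195, the smallest it can give. Values below 0 in all 10 lines were found for 5.43% of all genes tested, and ELOVL6 was the only one of the 31 among them. None of the 31 was above 0 in all 10 lines, against 4.39% of all genes.

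FADS1, the delta-5 desaturase of long polyunsaturated fatty acids, lies on chromosome 11 (61799625 to 61829318, minus strand). The authors' deposited table gives it −0.90 in NCIH1563, −0.13 in NCIH1975, 0.29 in NCIH522, −0.21 in PC9, −1.52 in EBC1, −0.48 in LK2, −1.38 in NCIH226, −0.82 in NCIH520, −0.42 in SKMES1 and −1.12 in SW900. It was called lower in all 6 LUSC lines and in NCIH1563, with EBC1 and NCIH226 lowest, and NCIH522 was the line above 0. The mean was −0.67 ± 0.58 (SD, n = 10), a fold of 0.629 (limma adjusted p = 0.00929). FADS2, the delta-6 desaturase that acts before FADS1, is encoded next to it, on the plus strand (61792980 to 61867354). In the authors' deposited table FADS2 had 0.84 in NCIH1563, −0.19 in NCIH1975, 0.01 in NCIH522, −0.85 in PC9, −1.37 in EBC1, −0.59 in LK2, −0.39 in NCIH226, −0.46 in NCIH520, 0.61 in SKMES1 and −1.05 in SW900. It was called lower in 5 LUSC lines and higher in NCIH1563, where FADS1 was called lower. Its mean of −0.34 ± 0.70 (SD, n = 10) did not pass (limma adjusted p = 0.209). FADS2 overlaps FEN1 on its own strand and FADS1 on the other. The library kit was a stranded one, but whether the counting used strand is not given in the sources used here. Reads shared between these genes are thus a source of uncertainty.

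SCD, the stearoyl-CoA desaturase that makes oleate, is on chromosome 10 (100347124 to 100364834, plus strand). Its log2 fold changes in the authors' deposited table were −0.53 in NCIH1563, −1.22 in NCIH1975, 0.31 in NCIH522, −0.10 in PC9, −1.46 in EBC1, −0.29 in LK2, −0.04 in NCIH226, −0.46 in NCIH520, −0.02 in SKMES1 and −0.82 in SW900. EBC1, NCIH1975 and SW900 were lowest, NCIH226 and SKMES1 were near 0, and NCIH522 was above 0. The mean of −0.46 ± 0.56 (SD, n = 10), a fold of 0.725, just passed (limma adjusted p = 0.0450). The call was lost when any one of NCIH1563, NCIH1975, EBC1, LK2, NCIH520 or SW900 was left out, with limma adjusted p-values of 0.0545, 0.0984, 0.0943, 0.0650, 0.0765 and 0.0981.

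**Figure D3:**
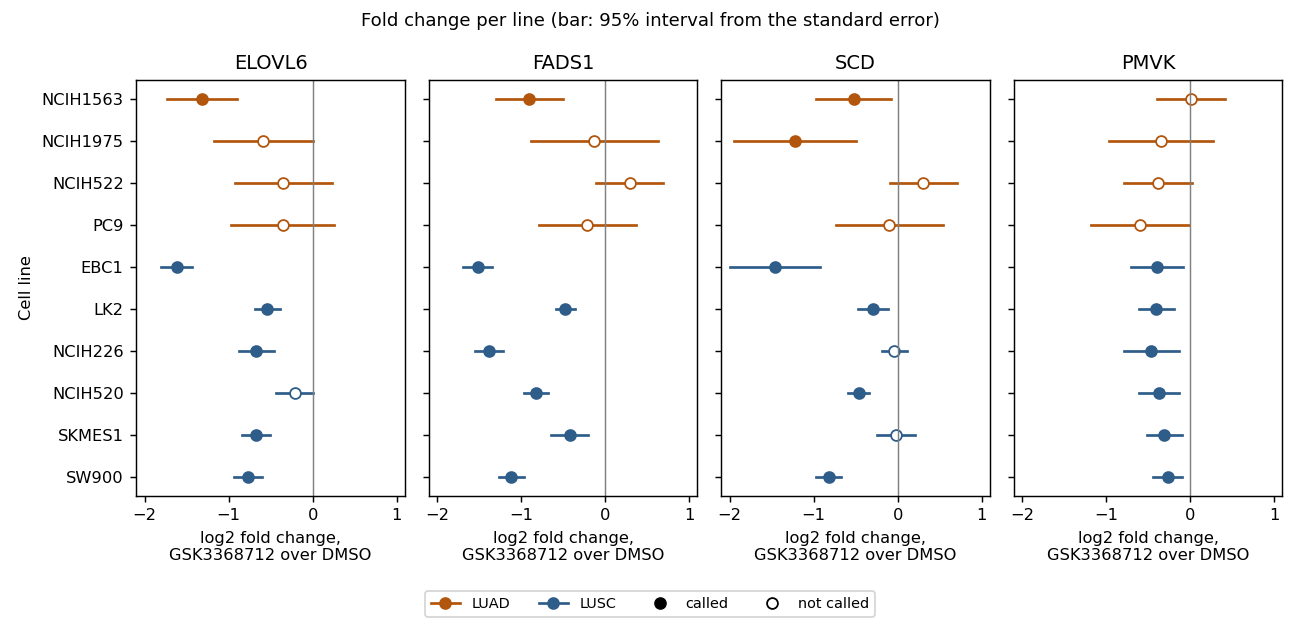
Log2 fold changes of the 4 genes that passed across lines, in each of the 10 lines (rows, LUAD above LUSC), GSK3368712 over DMSO, with bars for the 95% interval from the standard error. Filled points are called and open points are not. ELOVL6 is below 0 in all 10 lines, and the PMVK values of 9 lines lie between −0.60 and −0.27.

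The enzymes that feed these steps did not pass across lines. ACACA, the acetyl-CoA carboxylase of the committed step, averaged −0.30 ± 0.35 (SD, n = 10) and missed the threshold (limma adjusted p = 0.0514). It was called lower in NCIH1563, EBC1, LK2, NCIH520 and SW900 and higher in no line, and the call in NCIH1563 was lost on correction for GC content and transcript length (−0.24, recomputed adjusted p = 0.420). FASN, the fatty acid synthase, averaged −0.26 ± 0.45 (SD, n = 10; limma adjusted p = 0.173). In the authors' deposited table FASN was −1.07 in EBC1 (standard error 0.11, adjusted p 4.81e-22), −0.39 in SW900 and −0.35 in SKMES1, all called lower, and 0.56 in NCIH1563, called higher. After the same correction the call in NCIH1563 was lost (0.39, recomputed adjusted p = 0.0623). FASN was then also called lower in LK2 (−0.21, recomputed adjusted p = 0.00503) and NCIH520 (−0.25, recomputed adjusted p = 0.00244). ACLY, which makes cytosolic acetyl-CoA from citrate, averaged −0.13 ± 0.21 (SD, n = 10; limma adjusted p = 0.229) and was called lower in EBC1 and NCIH520.

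LPIN1, a phosphatidate phosphatase of triglyceride synthesis, had the widest range of the 32 genes. The authors' deposited table gives it −2.0 in NCIH1563, 0.63 in NCIH1975, 0.02 in NCIH522, 0.40 in PC9, −1.09 in EBC1, 0.79 in LK2, 0.30 in NCIH226, 0.37 in NCIH520, 0.47 in SKMES1 and 0.08 in SW900. It fell in NCIH1563, with a standard error of 0.23 and an authors' adjusted p of 4.24e-17 in the deposited table, and in EBC1, and it rose in LK2, NCIH226, NCIH520 and SKMES1. Its mean was −0.003 ± 0.87 (SD, n = 10), and its SD over lines stood at percentile 99.1 of all genes tested.

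Among the mevalonate genes, PMVK passed across lines. PMVK, phosphomevalonate kinase, is on chromosome 1 (154924734 to 154936991, minus strand). Its log2 fold changes in the authors' deposited table were 0.01 in NCIH1563, −0.35 in NCIH1975, −0.38 in NCIH522, −0.60 in PC9, −0.40 in EBC1, −0.41 in LK2, −0.46 in NCIH226, −0.37 in NCIH520, −0.31 in SKMES1 and −0.27 in SW900. All 6 LUSC lines were called lower within a narrow range, 3 LUAD lines lay below 0 without a call, and NCIH1563 was near 0. The mean was −0.35 ± 0.16 (SD, n = 10), a fold of 0.784 (limma adjusted p = 0.00221). Its lines did not differ beyond their errors by Cochran's Q (adjusted p = 0.806).

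The other 6 mevalonate genes had means between −0.16 and 0.17 and none passed. HMGCS1, the synthase that makes HMG-CoA, was called lower in NCIH1563, EBC1 and LK2 and higher in NCIH226 and SKMES1. In the authors' deposited table HMGCS1 ranged from −0.67 in NCIH1563 to 0.71 in NCIH1975, and the NCIH1975 value, with a standard error of 0.33, was not called. ACAT2, which joins acetyl-CoA units at the entry to the pathway, was called lower in EBC1, LK2 and NCIH520 and higher in none. FDPS, which makes farnesyl diphosphate, was called lower in EBC1, LK2, NCIH520 and SW900, and IDI1, the isopentenyl diphosphate isomerase, in EBC1 and LK2. The mevalonate kinase MVK and the decarboxylase MVD were both called higher in NCIH1563 and SKMES1 and lower in EBC1, and MVD was also called higher in NCIH226. FDPS has 8 pseudogenes of its name in the annotation, so its reads may be split.

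None of the 11 sterol genes passed across lines, and their means lay between −0.18 and 0.14. They moved in opposite directions in different lines. In SKMES1, 7 were called higher and 0 lower, in EBC1, 1 higher and 9 lower, and in LK2, 0 higher and 7 lower. FDFT1, squalene synthase, was called higher in NCIH1563 and SKMES1 and lower in EBC1, LK2 and NCIH520. SQLE, the squalene epoxidase, was called higher in NCIH226 and SKMES1 and lower in 4 LUSC lines, with −0.52 in EBC1 and 0.47 in SKMES1 in the authors' deposited table. LSS, which closes squalene epoxide into lanosterol, was called higher in NCIH1563, NCIH1975 and SKMES1 and lower in EBC1 and LK2. Its value in NCIH1975, 0.88 with a standard error of 0.26 (adjusted p 0.0116 in the authors' deposited table), was the only higher call of the 32 genes in that line. CYP51A1, the lanosterol demethylase, was called lower in NCIH1563, EBC1, LK2 and SW900 and higher in NCIH226.

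Later sterol steps gave the same mixture. MSMO1, the methyl oxidase, was called lower in EBC1, LK2 and NCIH520 and higher in SKMES1. NSDHL, the decarboxylating dehydrogenase that follows it, was called higher in NCIH1563 and lower in EBC1, LK2 and SW900. HSD17B7, the keto-reductase, was called lower in NCIH1563, EBC1 and LK2 and higher in SKMES1, and a pseudogene of it, HSD17B7P2, is listed too. EBP, the isomerase, was called lower in EBC1 alone of the 10 lines, and SC5D, a desaturase, was called lower in NCIH1563 alone, at −0.98 in the authors' deposited table. DHCR7, the last reductase of one branch, was called lower in EBC1 and higher in SKMES1.

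TM7SF2, a sterol reductase, was the only one of the 32 genes called higher in EBC1. Its log2 fold changes in the authors' deposited table were −0.10 in NCIH1563, 0.84 in NCIH1975, −0.06 in NCIH522, −0.70 in PC9, 0.60 in EBC1, −0.13 in LK2, −0.19 in NCIH226, −0.19 in NCIH520, 0.84 in SKMES1 and 0.33 in SW900. It was called higher in EBC1, SKMES1 and SW900 and lower in no line. After correction for GC content and transcript length those calls were kept. TM7SF2 was then also called lower in LK2 (−0.27, recomputed adjusted p = 0.00783) and NCIH520 (−0.25, recomputed adjusted p = 0.0439). TM7SF2 overlaps VPS51 on the same strand, so its reads may be shared.

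Of the regulators, INSIG1, itself a SREBP target and the sterol-dependent brake on SCAP, lies on chromosome 7 (155297776 to 155310235, plus strand). Its values in the authors' deposited table were −0.001 in NCIH1563, −0.72 in NCIH1975, 0.22 in NCIH522, −0.79 in PC9, −1.01 in EBC1, −0.54 in LK2, −0.06 in NCIH226, −0.59 in NCIH520, 0.78 in SKMES1 and −0.24 in SW900. It was called lower in EBC1, LK2, NCIH520 and SW900 and higher in SKMES1, which had the highest value. The mean of −0.30 ± 0.54 (SD, n = 10) did not pass (limma adjusted p = 0.176). With each line left out in turn, the mean ranged from −0.41 to −0.22. It passed only without SKMES1 (limma adjusted p = 0.0374), the line with its highest value, and a fit picked by that value adds no support. INSIG2, the form that is not driven by SREBPs in the same way, averaged 0.03 ± 0.22 (SD, n = 10; limma adjusted p = 0.807) and was called lower in EBC1 only of the 10 lines.

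By the authors' adjusted p, SREBF2 was called in the higher direction only, over the 10 lines. In the authors' deposited table its log2 fold changes were 0.52 in NCIH1563, 0.27 in NCIH1975, 0.43 in NCIH522, −0.24 in PC9, −0.16 in EBC1, 0.33 in LK2, 0.14 in NCIH226, 0.03 in NCIH520, 1.04 in SKMES1 and 0.23 in SW900. It was called higher in NCIH1563, LK2, SKMES1 and SW900 and lower in none, with SKMES1 highest at a standard error of 0.092 (adjusted p 3.76e-27 in the authors' deposited table). After correction for GC content and transcript length those calls were kept. SREBF2 was then also called lower in EBC1 (−0.26, recomputed adjusted p = 0.0150). The mean of 0.26 ± 0.37 (SD, n = 10) did not pass the adjustment (limma adjusted p = 0.104). SREBF1 had 0.02 in NCIH1563, −1.42 in NCIH1975, 0.10 in NCIH522, −0.70 in PC9, −0.78 in EBC1, −0.03 in LK2, −0.16 in NCIH226, −0.09 in NCIH520, 0.14 in SKMES1 and −0.05 in SW900 in the authors' deposited table. It was called lower in NCIH1975 and EBC1 and higher in none, and its mean was −0.30 ± 0.51 (SD, n = 10; limma adjusted p = 0.150). SREBF1 lay below SREBF2 in each of the 10 lines, by 0.55 ± 0.45 on the log2 scale (SD, n = 10), a pair that was set side by side after the values were seen and so has no test. SCAP averaged 0.02 ± 0.24 (SD, n = 10; limma adjusted p = 0.881) and was called higher in NCIH1563 and SW900. STARD4, a sterol carrier between membranes, was called lower in EBC1, LK2 and NCIH520, and its mean over 9 lines was −0.13 ± 0.43 (SD).

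The rise or fall of a line's sterol pathway was summarised by the median log2 fold change of the 18 mevalonate and sterol genes. It was −0.48 in PC9, −0.45 in EBC1, −0.33 in LK2, −0.22 in NCIH520, −0.06 in SW900, 0.02 in NCIH1563, 0.04 in NCIH1975, 0.05 in NCIH226, 0.10 in NCIH522 and 0.32 in SKMES1. INSIG1 and SREBF2, which are not among the 18, followed this order. Over the 10 lines INSIG1 had a Pearson r of 0.87 and a Spearman rho of 0.83 with it, and r was 0.80 without PC9 and EBC1, the lines farthest from the median. For SREBF2 the r was 0.85, the rho 0.73 and the r without those lines 0.71. FADS2 had r 0.75, rho 0.77 and 0.62 without them. ELOVL6 had r 0.12, rho −0.02 and −0.26 without them, and LPIN1 had r 0.04, rho −0.02 and −0.17. FASN had r 0.54 with rho 0.48, which rests on those lines, since r without them was −0.05. The other regulators had a lower r, 0.35 for SREBF1, 0.39 for SCAP and 0.09 for INSIG2. How often any gene reaches such an r with this median is not given here. All these correlations are descriptions over 10 points that share their libraries, their normalization and, within a line, any relation to base composition.

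**Figure D4:**
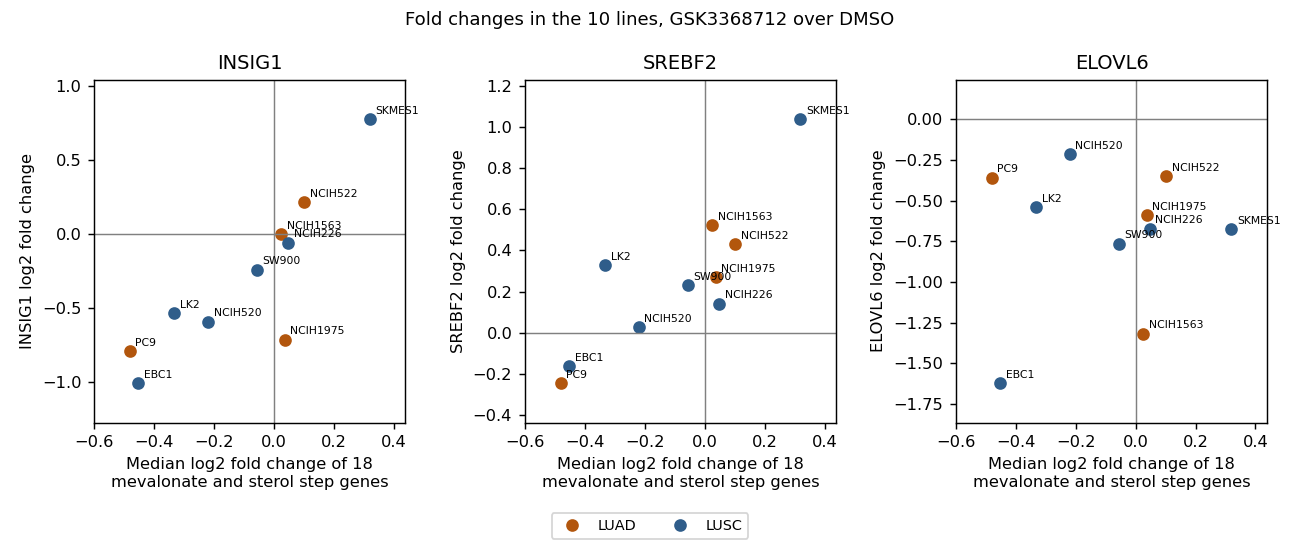
Log2 fold change of INSIG1, SREBF2 and ELOVL6 (vertical axes) against the median log2 fold change of the 18 mevalonate and sterol genes (horizontal axes), GSK3368712 over DMSO, 1 point per line, LUAD and LUSC in different colours. INSIG1 and SREBF2 are highest in SKMES1 and low in PC9 and EBC1, while ELOVL6 is below 0 at every position on the axis.

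The bases before the start are shown for INSIG1 and SREBF2, regulators that followed the sterol genes, as FADS2 also did. They are shown too for 3 fatty acid genes that passed across lines, SCD, ELOVL6 and FADS1. Each is the 250 bases upstream of the RefSeq start (GRCh38.p14), 5′ to 3′ on the gene's strand. GENCODE places the start of each of these genes farther upstream. The windows of FADS1 and ELOVL6 thus lie wholly inside their GENCODE spans, and those of INSIG1, SCD and SREBF2 lie partly inside. Windows at the GENCODE starts were not scanned. Capitals mark matches on either strand to CCAAT, the box bound by the SREBP partner NF-Y, or to TCACNCCAC, a core of the sterol regulatory element. The matches of the 2 motifs do not have to be bound, and other forms of the element exist.
INSIG1, chr7:155297628-155297877, plus strand: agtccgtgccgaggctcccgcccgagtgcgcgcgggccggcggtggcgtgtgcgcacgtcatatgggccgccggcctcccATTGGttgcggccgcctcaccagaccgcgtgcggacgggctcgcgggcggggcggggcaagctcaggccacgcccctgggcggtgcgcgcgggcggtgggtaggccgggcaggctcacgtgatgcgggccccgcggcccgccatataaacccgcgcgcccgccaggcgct
SREBF2, chr22:41832855-41833104, plus strand: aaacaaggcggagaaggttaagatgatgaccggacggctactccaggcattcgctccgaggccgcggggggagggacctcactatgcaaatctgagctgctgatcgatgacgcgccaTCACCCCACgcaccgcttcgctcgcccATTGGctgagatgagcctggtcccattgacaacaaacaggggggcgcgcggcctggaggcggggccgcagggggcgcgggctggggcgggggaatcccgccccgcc
SCD, chr10:100346983-100347232, plus strand: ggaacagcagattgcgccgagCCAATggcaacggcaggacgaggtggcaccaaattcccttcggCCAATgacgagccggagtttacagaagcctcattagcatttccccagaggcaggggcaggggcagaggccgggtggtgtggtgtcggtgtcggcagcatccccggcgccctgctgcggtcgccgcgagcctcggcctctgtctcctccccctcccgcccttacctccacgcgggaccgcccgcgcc
ELOVL6, chr4:110198616-110198865, minus strand: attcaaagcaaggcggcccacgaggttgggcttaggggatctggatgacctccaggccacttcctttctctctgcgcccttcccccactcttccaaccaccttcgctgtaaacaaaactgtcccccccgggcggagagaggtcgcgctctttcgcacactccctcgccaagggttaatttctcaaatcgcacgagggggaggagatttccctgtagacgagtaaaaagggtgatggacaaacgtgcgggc
FADS1, chr11:61817004-61817253, minus strand: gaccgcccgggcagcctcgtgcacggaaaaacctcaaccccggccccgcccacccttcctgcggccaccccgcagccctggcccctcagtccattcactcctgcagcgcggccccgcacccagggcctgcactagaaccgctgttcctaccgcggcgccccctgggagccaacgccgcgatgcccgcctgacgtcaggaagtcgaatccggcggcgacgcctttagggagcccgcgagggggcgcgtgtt

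INSIG1 has 1 CCAAT, SREBF2 has 1 CCAAT and 1 TCACNCCAC, and SCD has 2 CCAAT, while neither motif is in the windows of ELOVL6 and FADS1. The window of PMVK, which also passed across lines, is not shown and has neither motif. The RefSeq table held 28 of the 32 genes, and ACAT2, SQLE, FDFT1 and FASN are named only. CCAAT was present in 19 of the 28 windows (67.9%), against 10102 of all 27305 windows (37.0%). TCACNCCAC was present in 1 of the 28, that of SREBF2, against 297 of all windows (1.09%). All windows here means those of every gene in the RefSeq table, whether or not it was expressed in these lines. They are thus not a background of like expression. That these letters are missing from a window says nothing about the factors.

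Most of the genes differed between lines by more than the stated errors of their fold changes. Those errors rest on 2 libraries per treatment that may not be separate cultures. A difference between lines and one between cultures thus cannot be told apart by this test. Under Cochran's Q, computed from the standard errors of the authors' deposited table, the fold changes of 29 of 31 genes (93.5%) differed between lines (adjusted p at most 0.05), against 65.9% of all genes tested. The exceptions were PMVK and EBP. The median SD over lines was 0.39 for the 31 genes, against 0.29 for all genes. The pathway genes also had a smaller median standard error than all genes in every line, which makes a pass more likely at the same spread. With the standard errors multiplied by 1.5, 22 of the 31 passed. The share of all genes under those errors is not given here, so this count has no background.

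Responses were compared between the subtype labels. By limma, 0 of 31 genes differed in response between the 4 LUAD and 6 LUSC lines after adjustment, against 0.0107% of all genes (1 of 9339), a share near the background, and 1 of the 31 had an unadjusted p under 0.05. That gene was FADS1, with a mean of −0.24 ± 0.49 in LUAD lines (SD, n = 4) and −0.96 ± 0.46 in LUSC lines (SD, n = 6). The difference of 0.72 had a 95% interval of 0.14 to 1.30 (limma adjusted p = 0.816), and a two-sided exact permutation of the labels gave p = 0.0524. The LUAD lines have the larger standard errors, so their fold changes enter this comparison with less precision. For the numbers of calls, a difference between the subtypes and one in precision cannot be told apart.

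In some lines the fold changes moved with the GC content of the transcripts, and the 31 genes span 35.4% to 65.3% GC. The correlation across the 9336 genes with a value, which are not independent replicates, was 0.40 in NCIH1563, 0.24 in NCIH522, −0.22 in NCIH1975 and −0.20 in PC9, and it lay between −0.001 and 0.13 in the LUSC lines. Over the 31 genes it was 0.58 in NCIH1563 and −0.60 in PC9. After the fold changes of each line were corrected for GC content and transcript length, NCIH1563 had 5 genes called higher and 4 lower, in place of 9 and 9. Those 9 were FDFT1, LSS, NSDHL, SREBF2 and FADS2 (higher) and SC5D, ELOVL6, FADS1 and LPIN1 (lower), all called in the same direction before. The calls lost in NCIH1563 were those of MVK, MVD, SCAP and FASN (higher) and of HMGCS1, CYP51A1, HSD17B7, SCD and ACACA (lower), with recomputed adjusted p-values of 0.0623 for FASN to 0.671 for SCD. Outside that line, MVK in SKMES1 (recomputed adjusted p = 0.0537) and CYP51A1 in SW900 (recomputed adjusted p = 0.0889) lost their calls. PC9 gained 2 lower calls, FDFT1 (−0.91, recomputed adjusted p = 0.0350) and INSIG1 (−1.07, recomputed adjusted p = 0.00449). Calls in either direction also rose from 21 to 27 in LK2 and from 14 to 18 in NCIH520. They rose from 9 to 10 in NCIH226 and from 3 to 4 in NCIH1975. EBC1 had 1 higher and 29 lower after the correction, and SKMES1 12 higher and 5 lower. The shares of all genes called in a line after the correction are not given here. The 4 genes that passed across lines still passed, and ACACA was added (limma adjusted p = 0.0133). The correction was chosen after the data were seen.

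**Figure D5:**
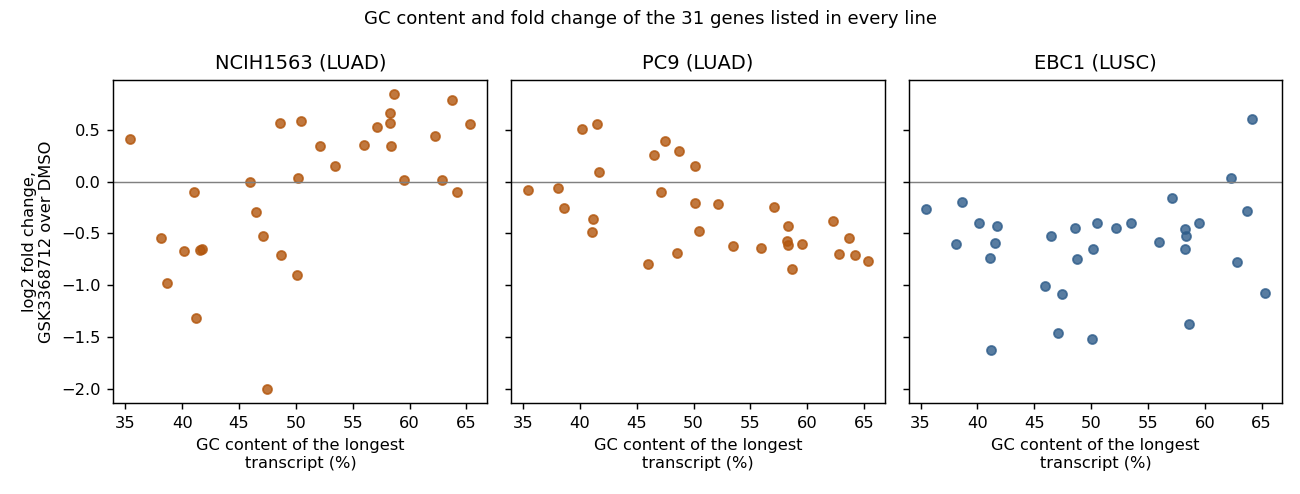
Log2 fold change (GSK3368712 over DMSO) against the GC content of the longest transcript in percent for the 31 genes in NCIH1563, PC9 and EBC1, 1 point per gene. In NCIH1563 the points climb with GC content, at r 0.58, and in PC9 they descend, at r −0.60.

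Neighbouring pathways were followed with lists of genes beyond the 32. Among 10 genes that process or degrade SREBPs and their partners, 1 passed as higher and 1 as lower across lines (10% each). The shares of all genes were 9.50% and 12.1%, and no list was tested as a set. C12orf49, which supports SREBP cleavage, averaged 0.24 ± 0.17 (SD, n = 10; limma adjusted p = 0.0211), and MBTPS2, the site-2 protease, −0.52 ± 0.55 (SD, n = 10; limma adjusted p = 0.0266). ERLIN2, which takes part in sterol-driven degradation, averaged −0.32 (limma adjusted p = 0.0904). Of 12 genes on branches from the mevalonate pathway, 1 passed as higher (8.33%) and 2 as lower (16.7%). COQ2, which attaches the isoprenoid tail of coenzyme Q, averaged −0.64 ± 0.31 (SD, n = 10; limma adjusted p = 0.000594) and was below 0 in 10 of 10 lines. RABGGTB, a subunit of the Rab geranylgeranyl transferase, rose by 0.34 ± 0.27 (SD, n = 10; limma adjusted p = 0.0116), and FNTA, the farnesyl and geranylgeranyl transferase alpha subunit, fell by 0.27 (SD 0.24; limma adjusted p = 0.0258).

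Of 30 genes of fatty acid supply, elongation and acyl transfer, 21 had values in all lines. Of these, 1 passed as higher (4.76%, against 9.50% of all genes) and 6 as lower (28.6%, against 12.1%). HACD1, a dehydratase of the elongation cycle in which ELOVL6 also acts, averaged −0.68 ± 0.38 (SD, n = 10; limma adjusted p = 0.00106) and was below 0 in 10 of 10 lines. FADS3, the neighbour and relative of FADS1 and FADS2, averaged 0.71 ± 0.45 (SD, n = 10; limma adjusted p = 0.00179) and was above 0 in 10 of 10 lines, where FADS1 was below 0 in 9. AGPAT5, an acyltransferase, averaged −0.45 (limma adjusted p = 0.0126), and ACSL3, which activates long fatty acids, −0.38 (limma adjusted p = 0.0200). Of 17 genes of oxysterol receptors, sterol esterification and movement, 13 had values in all lines. Of these, 2 passed as higher (15.4%, against 9.50% of all genes) and 0 as lower (against 12.1%). STARD3, a late endosomal sterol carrier, averaged 0.30 ± 0.22 (SD, n = 10; limma adjusted p = 0.0124) and was above 0 in 10 of 10 lines. OSBPL5, of the oxysterol-binding protein family, averaged 0.44 ± 0.54 (SD, n = 10; limma adjusted p = 0.0494). NR1H2, the liver X receptor beta, averaged 0.25 (limma adjusted p = 0.0538) and GRAMD1A, a plasma membrane to endoplasmic reticulum sterol carrier, 0.29 (limma adjusted p = 0.0978).

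Levels were compared between genes per length, as the authors' mean normalized count over both treatments per kilobase of the longest transcript, normalized separately for each line. The counts come from the authors' deposited table, and the lengths and the medians over lines were added here. By that median, ACLY stood highest at 8354, with FDPS at 7908 and SCD at 6562. STARD4 stood lowest at 268, with HSD17B7 at 362, INSIG2 at 398 and ELOVL6 at 445. ELOVL6 and SCD, which both fell across lines, thus stood near opposite ends of this order.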

How the data were processed

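The samples were 40 RNA-seq libraries of 10 cell lines, with 2 libraries for GSK3368712 and 2 for DMSO in each line. Per the labels' protocols, the TruSeq Stranded mRNA kit was used and paired reads had 151 bases, and the stated depth was 100000000 reads a sample. Per the submitters' processing notes, FastQC, Salmon 0.12.0, DESeq2 and GRCh38 were used, and per the labels genes at or under an FPKM of 1 were dropped from a comparison. Library values were not analysed here, so the depth reached in each library is not known from the files and no counting interval is given. The sum of the authors' mean normalized counts, a signal per gene and line, was 57647556 to 108557964 per line.

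The authors' deposited table gives a log2 fold change with its log2 standard error, a test statistic (a score) and an adjusted p-value for each gene and line. Computed here were the limma test across lines, the limma test of LUAD against LUSC, and Cochran's Q, each adjusted by Benjamini-Hochberg over 9339 genes, with R 4.3.3 and limma 3.58.1. Means ± SD are over lines. Figures and counts used Python 3.11.15, numpy 2.4.6, pandas 2.3.3 and matplotlib 3.10.9. Positions, transcript length and GC content came from GENCODE 29, with GC content for 9336 of 9339 genes, and promoter sequences from RefSeq. Each test was checked on simulated data.

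The 32 genes, the lists and the tests were chosen with earlier results of these data known. Values in every line are given for genes past the test across lines and for the 2 genes with the largest called absolute fold change per line, and at most 4 genes per further list, those with the smallest p, are named. The result of 1 further gene that this rule takes is not reported here. Alternatives were other sets of genes tested, centring and scaling of the lines, other variance models, a meta-analysis, a fold change minimum, leaving out each line and recomputed adjustment. A correction for GC content with transcript length, and a fit of LUSC lines only, were chosen after seeing the data.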

Additional observations from a re-analysis of the deposited data

Results flagged for a closer look

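NSDHL had a log2 fold change of 0.58 in NCIH1563, apart from the other lines, whose values lay between −0.48 and 0.03. It was the only one of the 32 genes with a line apart from the rest by Dixon's criterion, which chance meets in about 1 of 20 groups. After correction for GC content and length NSDHL was still called higher in NCIH1563. Over all 10 lines the mean of NSDHL was −0.18 and did not pass (limma adjusted p = 0.199). Without NCIH1563 it was −0.27 (limma adjusted p = 0.0109), but that line was picked by its value, so this p adds no support.

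For 6 genes the values called in different lines had opposite signs and a size of 0.5 or more on each side. The spread from the lowest to the highest called value was 1.19 for HMGCS1 (SKMES1 minus NCIH1563) and 1.22 for MVK (NCIH1563 minus EBC1). It was 1.78 for INSIG1 (SKMES1 minus EBC1), 1.63 for FASN (NCIH1563 minus EBC1), 2.21 for FADS2 (NCIH1563 minus EBC1) and 2.79 for LPIN1 (LK2 minus NCIH1563). The difference between those 2 lines was not tested for any gene. Passing Cochran's Q over the 10 lines was a condition for entering this list, so it adds no support. The share of all genes that meet the same rule is not given here. In NCIH1563 the fold changes moved with GC content. After correction for it, FADS2 and LPIN1 were still called in NCIH1563, and HMGCS1, MVK and FASN were not.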

How the results depend on the processing

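No paired analysis was possible because the deposited table holds 1 fold change per gene and line and no values per library, and leaving out each library in turn was not run for the same reason. Across lines, the 4 genes called lower became 7 in the random-effects meta-analysis and 3 to 7 when each line was left out in turn, with 7 without NCIH1563. The genes called lower over the whole table moved too, 2053 in the meta-analysis and 880 to 1478 over the left-out lines, against 1134 in the test as reported. ELOVL6, FADS1 and PMVK kept their calls in every alternative run. SCD lost its call over genes with values in at least 7 lines (limma adjusted p = 0.0562), in an ordinary one-sample test (adjusted p = 0.102), in the LUSC lines alone (limma adjusted p = 0.0615) and without each of 6 lines. The count of genes called higher was 0 throughout. No gene differed between LUAD and LUSC lines in any alternative, and those passing Cochran's Q numbered 22 to 30. The shares of all genes in these alternatives are not given here.

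Within lines, a minimum absolute log2 fold change of 1 left these numbers called higher and lower: NCIH1563 0 and 2, NCIH1975 0 and 2, EBC1 0 and 7, LK2 0 and 0, NCIH226 0 and 1, NCIH520 0 and 0, SKMES1 1 and 0, SW900 0 and 2. A minimum of 0.5 left LK2 with 1 and 4, NCIH226 with 1 and 2, NCIH520 with 0 and 2, SKMES1 with 6 and 1, SW900 with 0 and 4, and EBC1 with 18 called lower. Correction for GC content and length left 5 and 4 in NCIH1563 and gave 2 called lower in PC9. It gave 3 and 24 in LK2 and 1 and 17 in NCIH520. No shares of all genes are given for these minimums or for the corrected calls, so these counts have no background. Standard errors limit the LUAD lines most.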
